A study of Schizosaccharomyces pombe with 12 samples.

Results

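The genes described here are those of fission yeast (Schizosaccharomyces pombe) whose standard name is ade, his, arg, lys, leu, trp or met followed directly by a number, the names given to genes found through mutants that need adenine or an amino acid. The rule used names only and no measured value. It selected 56 genes of the 5483 annotated features measured: 10 ade, 7 his, 10 arg, 7 lys, 4 leu, 6 trp and 12 met genes. Every one of the 56 names of this form in the gene table used for names was measured.

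Total RNA of 4 strains was hybridised to Affymetrix tiling arrays, with 3 biological replicates per strain and 12 arrays in all. The strains were wild-type (SPB80), dcr1Δ (SPB81), dcr1ΔC33 (SPB287) and dcr1-SHSS (SPB776), all collected at an OD600 of 0.5. dcr1 encodes Dicer, the enzyme of RNA interference that dices long double-stranded RNA into small RNAs, and the series as a whole asked how a zinc-binding motif in an extended double-stranded RNA binding domain bears on the nuclear retention of Dicer. The labels name the alleles and give no description of them, nor any other marker allele that a strain may carry, nor the medium or temperature.

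Each value is the deposited log2 level of a feature on one array, so a difference of 1 is a 2-fold change. The targeted gene checked the labels: dcr1 had levels of 10.49, 10.57 and 10.60 in wild type, which the deletion strain dcr1Δ lowered to 5.52, 5.80 and 5.37. It stood at 10.85 to 10.89 in dcr1ΔC33 and at 10.64 to 10.70 in dcr1-SHSS. Array medians lay between 11.37 and 11.42, and no array stood apart in its median. A level is a share of the total RNA labelled, so fewer cells that express a gene and less RNA per cell cannot be told apart.

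Cells make purines by a chain of reactions that builds the ring on a ribose phosphate, with glycine, glutamine, aspartate and one-carbon units from folate as donors, and that ends in inosine monophosphate, the branch point to AMP and GMP. The amino acid pathways each begin with a reaction that commits a shared precursor, and the first enzyme is commonly inhibited by the end product. In budding yeast, many of these genes are under general control by the starvation-activated factor Gcn4, and in fission yeast the transcription factor Fil1 has a comparable role. Loss of one such enzyme gives a strain that grows only when the product is supplied, which is why several of these genes serve as laboratory markers.

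Not every selected gene encodes a biosynthesis enzyme. trp663 and trp1322 are named for their likeness to TRP-type membrane channels, not for tryptophan. leu5 is known from budding yeast as a mitochondrial carrier of coenzyme A, and arg82 encodes an inositol polyphosphate kinase. These 4 genes are kept in all counts below.

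The 56 genes were mostly abundant transcripts. Of them, 45 were at or above the median feature in mean level and 11 below it (leu5, met11, arg3, met9, arg82, met7, arg7, ade9, arg6, trp3 and trp663). met7 and trp663 were in the lowest 20% of features. Their replicates were tight. The median SD between the 3 arrays of a strain was 0.0388 over the 56 genes for wild type (all features 0.0715), 0.0489 for dcr1Δ (0.0697), 0.0362 for dcr1ΔC33 (0.0538) and 0.0371 for dcr1-SHSS (0.0653). The genes were spread over the genome, with 22 on chromosome I, 25 on chromosome II and 9 on chromosome III.

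The labelling assay makes double-stranded target, so RNA from both strands of a locus is read together. By the gene annotation, 52 of the 56 genes overlap another annotated gene, 22 of them a protein-coding one. For 24 of the 56 an overlapping gene was itself measured, and the values of those neighbours are given below for the genes called against wild type. Whether a neighbour contributes to a member's value was not tested for any of them.

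The first comparison asked whether loss of Dicer changes these genes. None of the 56 passed the threshold in dcr1Δ against wild type, an adjusted p of 0.05 in limma over all features, where 3.14% of all features passed, 2.81% higher and 0.328% lower. The median log2 change over the 56 genes was −0.03, with 14 genes above 0 and 42 below, and over all features it was 0.00. This difference depended on scaling: after quantile normalization the medians were −0.013 over the 56 genes and −0.017 over all features. Features at or above the median in mean level, a class chosen after the values were seen, had a median change of −0.022. For the 45 genes that lie there it was −0.033. At an unadjusted p under 0.05 there were 10 of the 56 genes (17.9%), 3 higher and 7 lower, against 995 of all features (18.1%). The gene nearest the threshold was trp663 at 0.25 ± 0.07 (moderated SE, 3 arrays per strain, as for every change below; adjusted p = 0.0786). Leaving out wild-type array 1 took trp663 past the threshold, at 0.30 with an adjusted p of 0.048.

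Of the 56 genes 3 had all dcr1Δ arrays above all wild-type arrays and 11 had them all below. Among all 5483 features the counts were 636 (11.6%) above and 518 (9.45%) below. Arrays wholly below were the more common case among the 56 and the less common among all features. These counts were not made for features of like level or after another scaling. Features at or above the median in mean level had a median change of −0.022 in dcr1Δ, and those below it 0.035. ade7, the SAICAR synthetase of purine synthesis, had a change of −0.12 ± 0.03 (adjusted p = 0.0900). met8, an enzyme that makes siroheme for sulfite reductase, had a change of −0.19 ± 0.08 (adjusted p = 0.246). leu5 was on the other side, at 0.13 ± 0.05 (adjusted p = 0.217), as was met9, a methylenetetrahydrofolate reductase, at 0.12 ± 0.04 (adjusted p = 0.186).

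**Figure D1:**
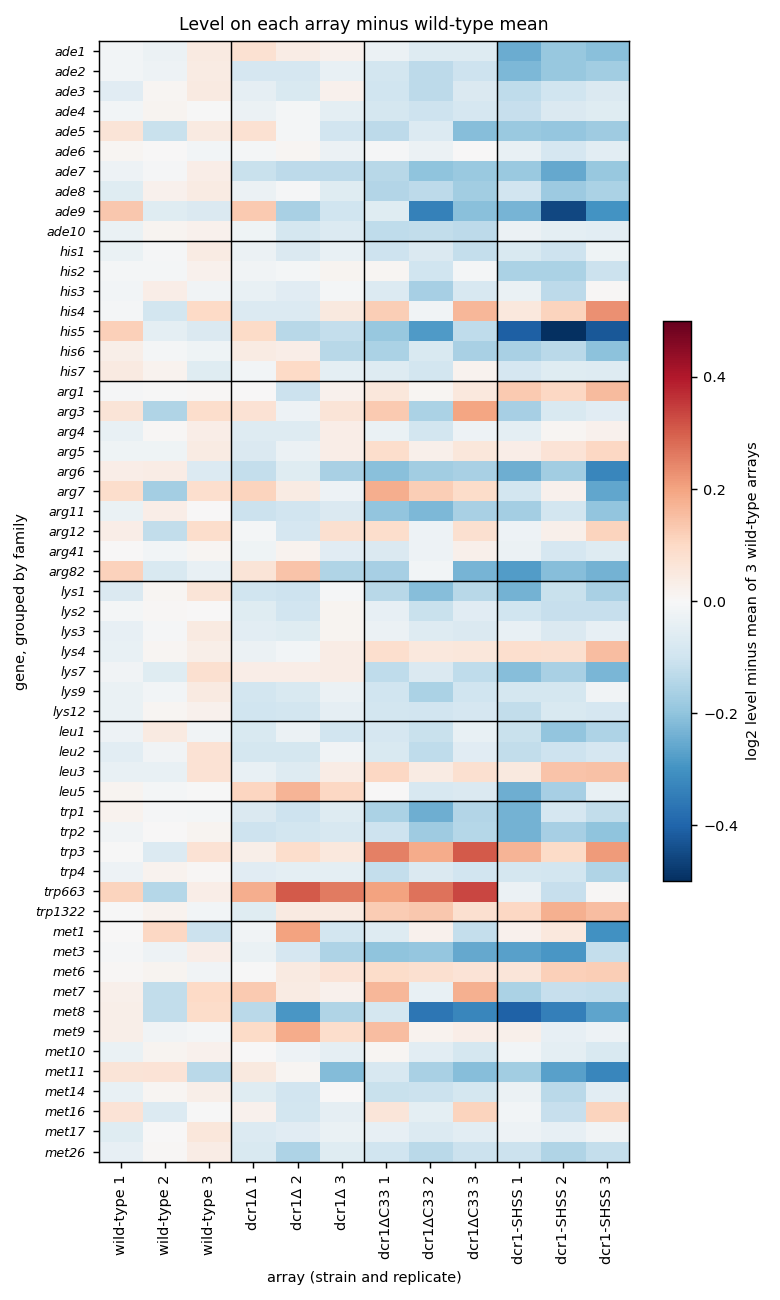
Each row is one of the 56 genes, grouped by family, and each column one array; colour gives the log2 level minus the mean of the 3 wild-type arrays of that gene. The dcr1ΔC33 and dcr1-SHSS columns are mostly blue (lower), with his5, ade9 and met8 darkest in dcr1-SHSS, while the trp3 row is red (higher) in both.

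Many of the 56 genes were slightly lower in dcr1ΔC33 and more of them in dcr1-SHSS. In dcr1ΔC33 against wild type 16 genes fell (28.6%) and 3 rose (5.36%), where 32.3% of all features were called, 17.6% lower and 14.7% higher. In dcr1-SHSS against wild type 26 genes fell (46.4%) and 5 rose (8.93%), where 40.7% of all features were called, 25.8% lower and 15% higher. The median log2 change of the 56 genes was −0.08 in dcr1ΔC33 and −0.10 in dcr1-SHSS, beside −0.03 and −0.06 over all features. After quantile normalization the medians were −0.050 and −0.096, beside −0.043 and −0.056 over all features, so in dcr1ΔC33 they were then close. With the replicate number as a block, since the numbers were taken as pairing dcr1ΔC33 with wild type, 23 genes fell in dcr1ΔC33 (41.1%, where 22.9% of all features did) and 3 rose. The 7 genes added were met14, met11, his1, his5, his6, ade3 and ade9. All changes were small, and none of the 56 reached 1.5-fold in any comparison. The arrays lay wholly below wild type for 25 genes and wholly above for 7 in dcr1ΔC33 (28.8% and 20.6% of all features), and for 30 and 5 genes in dcr1-SHSS (32.6% and 17.8%). All 3 comparisons with wild type used the same 3 wild-type arrays.

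Because the genes are abundant, the share called was also set beside features of like level, a comparison chosen after the values were seen. Among the 2742 features at or above the median in mean level, 23% fell in dcr1ΔC33 and 27.6% in dcr1-SHSS, and among the 45 genes that lie there 33.3% and 46.7% fell. The median changes of these features were −0.053 and −0.050, and those of the 45 genes −0.091 and −0.082. The share that fell in dcr1ΔC33 depended on single arrays and on scaling. Without dcr1ΔC33 array 3 it was 12.5% (10.5% of all features), and without its array 1 or 2 14.3% (12.8% and 12.2%). Without wild-type array 3 it was 14.3% (12.9% of all features), each near the background. Without wild-type array 1 or 2 it was 26.8% and 19.6% (13.6% and 13.9%). In dcr1-SHSS leaving out 1 array gave 32.1% to 39.3%, where 18.6% to 23.6% of all features fell. After quantile normalization 10 genes fell (17.9%, where 21.4% of all features did) and 4 rose (7.14%, where 12.6% did), so the share that fell was then below the background. With each array centred on its median, 14 fell (25%, where 18.3% of all features did) and 2 rose (3.57%, where 13.9% did). In dcr1-SHSS quantile normalization gave 26 lower and 5 higher, where the shares over all features were 27.5% and 14.9%, and centring gave 18 lower (32.1%) and 5 higher, where 21.4% and 16% of all features were called. Fits with only the 2 strains compared called 11 genes for dcr1ΔC33 and 19 for dcr1-SHSS. In dcr1ΔC33 9 fell (16.1%, where 14.2% of all features did, so near the background) and 2 rose (3.57%, where 13.8% did). In dcr1-SHSS 17 fell (30.4%, where 18.9% of all features did) and 2 rose (3.57%, where 12.6% did).

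**Figure D2:**
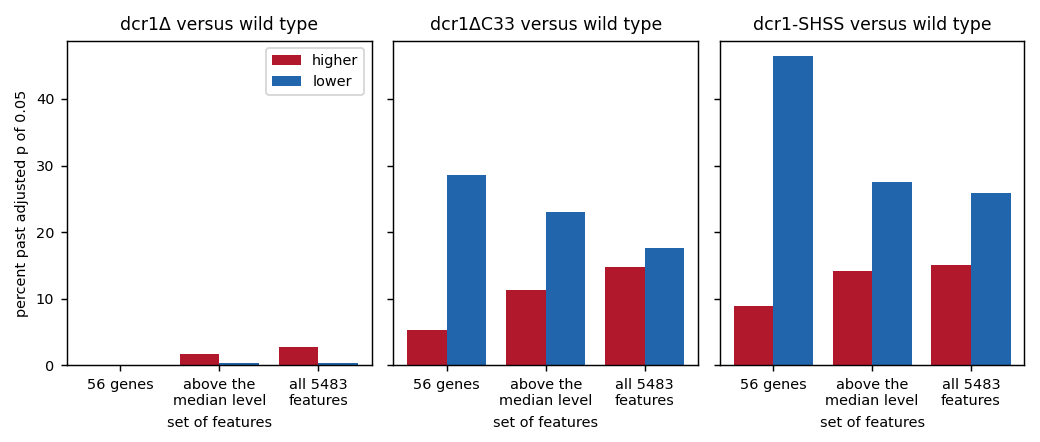
Bars give the percent of features past the threshold, higher in red and lower in blue, for the 56 genes, for features at or above the median in mean level and for all 5483 features, in each comparison with wild type. The lower share of the 56 genes is 28.6% in dcr1ΔC33 and 46.4% in dcr1-SHSS, and none of the 56 genes was called in dcr1Δ.

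**Figure D3:**
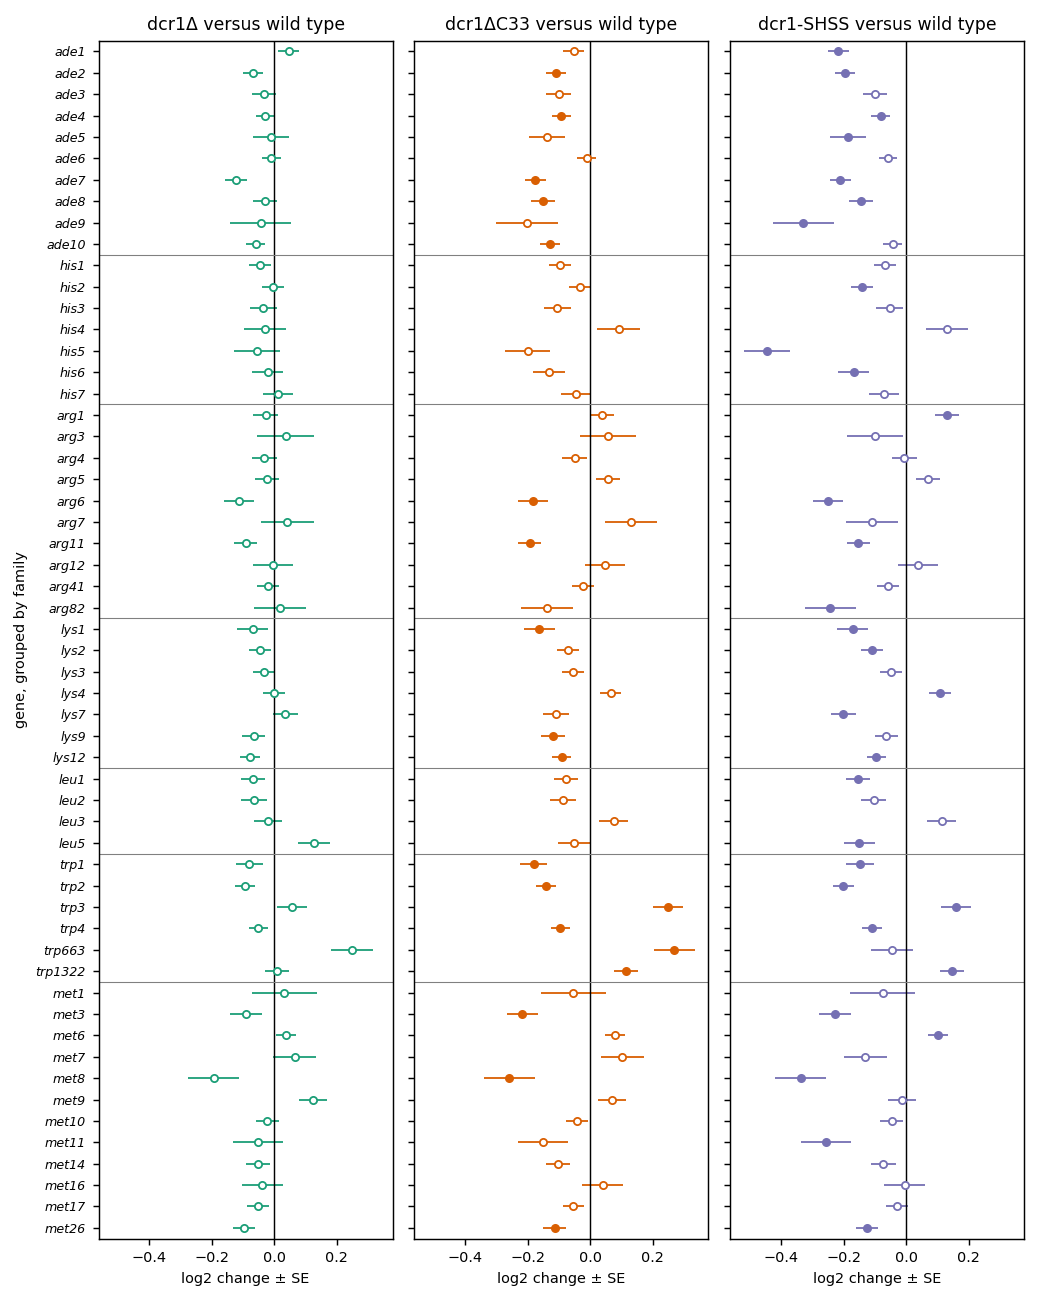
Points give the log2 change against wild type with its SE for each of the 56 genes in the 3 mutants, filled where the adjusted p was under 0.05. All points lie between −0.45 and 0.27, and the filled points of dcr1ΔC33 and dcr1-SHSS are mostly left of 0.

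Single calls at this size of change depended on single arrays. When each of the 6 arrays of a comparison was left out in turn, 8 of the 19 calls in dcr1ΔC33 and 14 of the 31 in dcr1-SHSS passed every time. In dcr1ΔC33 those were ade7, ade10, arg11, met3, trp1, trp2, trp3 and trp663. In dcr1-SHSS they were ade1, ade2, ade7, ade8, his2, his5, arg6, arg11, leu1, lys7, met3, met8, trp2 and trp1322. After quantile normalization 11 of the 19 and 29 of the 31 passed, with median centring 14 and 23, and with only the 2 strains compared 11 and 19. None of these calls changed direction under any alternative run. Calls that did not pass every time are given below with the highest adjusted p that leaving out 1 array gave.

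Each family count below stands beside the same background, in which 17.6% of all features fell and 14.7% rose in dcr1ΔC33, and 25.8% fell and 15% rose in dcr1-SHSS. Of the 10 purine (ade) genes 5 fell in dcr1ΔC33 (50%) and 7 in dcr1-SHSS (70%), none rose, and the family medians were −0.12 and −0.17. After quantile normalization 2 fell in dcr1ΔC33, near the background of that scaling, and 6 in dcr1-SHSS.

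ade7, whose enzyme joins aspartate to the imidazole ring, stood at 13.45, 13.47 and 13.51 in wild type and at 13.37, 13.35 and 13.35 in dcr1Δ. It stood at 13.34, 13.27 and 13.29 in dcr1ΔC33 and at 13.29, 13.22 and 13.29 in dcr1-SHSS. Every mutant array was below every wild-type array. It fell by 0.18 ± 0.03 in dcr1ΔC33 (adjusted p = 0.00387) and by 0.21 ± 0.03 in dcr1-SHSS (adjusted p = 0.00116). The non-coding RNA SPNCRNA.568, which overlaps ade7, was also lower in dcr1-SHSS, at −0.45 ± 0.09 (adjusted p = 0.00412), and stood at −0.14 ± 0.09 in dcr1ΔC33 (adjusted p = 0.262).

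ade1, whose product carries the glycinamide ribotide synthetase and the ring-closing aminoimidazole ribotide synthetase activities, was lowest in dcr1-SHSS. Its levels were 11.58, 11.56 and 11.64 in wild type, 11.67, 11.63 and 11.61 in dcr1Δ, and 11.56, 11.52 and 11.53 in dcr1ΔC33. In dcr1-SHSS they were 11.34, 11.40 and 11.38, below every other array. The decrease against wild type was −0.22 ± 0.03 (adjusted p = 0.000934), and the dcr1ΔC33 change of −0.05 ± 0.03 did not pass (adjusted p = 0.258). Between dcr1-SHSS and dcr1ΔC33 ade1 was not called (adjusted p = 0.0946). Its neighbour SPBC405.02c stood at −0.07 ± 0.06 in dcr1-SHSS (adjusted p = 0.361).

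ade2, the adenylosuccinate synthase of the AMP branch, fell by 0.11 ± 0.03 in dcr1ΔC33 (adjusted p = 0.0275) and by 0.20 ± 0.03 in dcr1-SHSS (adjusted p = 0.00136). ade8, the adenylosuccinate lyase, fell by 0.15 ± 0.04 in dcr1ΔC33 (adjusted p = 0.0136) and by 0.14 ± 0.04 in dcr1-SHSS (adjusted p = 0.0133). Of its measured neighbours med7 fell by 0.17 in dcr1-SHSS (adjusted p = 0.00453) while SPBC14F5.10c rose by 0.55 and 0.60 in the 2 mutants, opposite to ade8. ade4, the amidotransferase of the first reaction, fell by 0.09 ± 0.03 in dcr1ΔC33 (adjusted p = 0.0361) and by 0.08 ± 0.03 in dcr1-SHSS (adjusted p = 0.047). The dcr1ΔC33 call of ade2 reached 0.093 without wild-type array 3 and also failed without any one of the dcr1ΔC33 arrays, and that of ade8 reached 0.0509 without dcr1ΔC33 array 3. Both ade4 calls failed without any one array of their comparison, at up to 0.101 without dcr1ΔC33 array 2 and up to 0.144 without dcr1-SHSS array 1. After quantile normalization the ade4 changes shrank to −0.02 (adjusted p = 0.618) and −0.05 (adjusted p = 0.207), and the ade2 change in dcr1ΔC33 to −0.08 (adjusted p = 0.0861).

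Other purine genes were called in one mutant. ade10, which carries out the last 2 steps to inosine monophosphate, fell by 0.13 ± 0.03 in dcr1ΔC33 (adjusted p = 0.0111, and 0.154 after quantile normalization) and stood at −0.04 ± 0.03 in dcr1-SHSS. ade5, the glycinamide ribotide transformylase, fell by 0.19 ± 0.06 in dcr1-SHSS (adjusted p = 0.0285), and this call failed without any array of the comparison except wild-type array 2, at up to 0.0977 without wild-type array 1. ade9, the C1-tetrahydrofolate synthase that supplies the folate one-carbon units, stood at 10.78, 10.59 and 10.57 in wild type and at 10.41, 10.19 and 10.35 in dcr1-SHSS. It fell there by 0.33 ± 0.10 (adjusted p = 0.0225), and the adjusted p was 0.0836 without wild-type array 1 and 0.0815 without dcr1-SHSS array 2. Its neighbour crs1 stood at 0.33 ± 0.22 (adjusted p = 0.262). In dcr1ΔC33 ade9 stood at −0.20 and passed only with the replicate block (adjusted p = 0.00568). ade3, the FGAM synthase, stood at −0.10 ± 0.04 in both mutants without passing (adjusted p = 0.0707 and 0.0660), and passed in dcr1ΔC33 with the block (adjusted p = 0.0293).

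ade6, the AIR carboxylase whose loss turns colonies red and which reports on silencing in fission yeast laboratories, was not called. Its levels were 12.99, 12.98 and 12.96 in wild type, 12.97, 12.99 and 12.95 in dcr1Δ, 12.97, 12.95 and 12.98 in dcr1ΔC33, and 12.94, 12.90 and 12.93 in dcr1-SHSS. The changes were −0.01, −0.01 and −0.06 in that order of mutants, and the largest had an adjusted p of 0.134.

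In the histidine family none of 7 genes was called in dcr1ΔC33 and 3 fell in dcr1-SHSS (42.9%). In dcr1ΔC33 centring called 2 lower, quantile normalization 1, and the replicate block 3 (his1, his5 and his6). his5, the imidazoleglycerol-phosphate dehydratase, had the largest change among the 56 genes against wild type. Its levels were 12.95, 12.78 and 12.76 in wild type, 12.93, 12.69 and 12.71 in dcr1Δ, 12.64, 12.55 and 12.70 in dcr1ΔC33, and 12.42, 12.32 and 12.41 in dcr1-SHSS. The dcr1-SHSS arrays lay below all others, and array 1 was the highest in wild type and in dcr1Δ. his5 fell by 0.45 ± 0.07 in dcr1-SHSS, which is 1.36-fold (adjusted p = 0.00121). In dcr1ΔC33 all 3 arrays were also below wild type, at −0.20 ± 0.07, without passing (adjusted p = 0.0584, and 0.018 with the block).

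his2, the histidinol dehydrogenase of the last step, fell by 0.14 ± 0.04 in dcr1-SHSS (adjusted p = 0.0107). his6, the isomerase, fell there by 0.17 ± 0.05 (adjusted p = 0.0226), with an adjusted p of 0.0693 without wild-type array 1 and 0.0723 without dcr1-SHSS array 3. Its neighbour map3 stood at −0.20 ± 0.13 (adjusted p = 0.217). In dcr1ΔC33 his6 stood at −0.13 (adjusted p = 0.0676, and 0.0293 with the block). The others were not called: his1, the phosphoribosyltransferase of the first reaction, stood at −0.10 in dcr1ΔC33 (adjusted p = 0.0549, and 0.0449 with the block) and −0.07 in dcr1-SHSS. his4, the imidazoleglycerol-phosphate synthase that works just before his5, stood at 0.09 and 0.13 (adjusted p = 0.322 and 0.144). his3 and his7, both used as selection markers, stood at −0.11 and −0.05 in dcr1ΔC33 and at −0.05 and −0.07 in dcr1-SHSS.

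**Figure D4:**
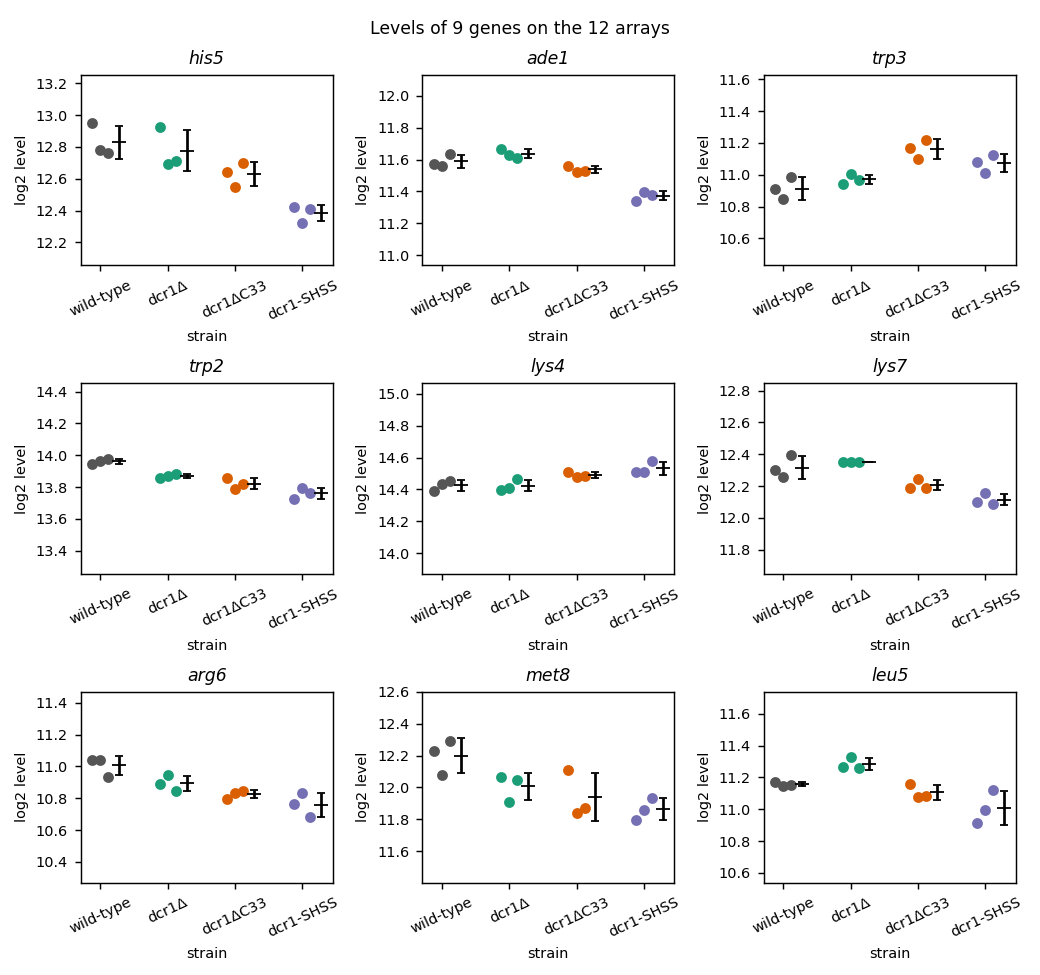
Points give the log2 level of 9 genes on each of the 12 arrays, by strain, with the mean and SD of 3 arrays beside them; each axis spans the same log2 range. his5 and ade1 are lowest in dcr1-SHSS, trp3 is highest in dcr1ΔC33, and leu5 is highest in dcr1Δ.

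In the arginine family arg6 and arg11, of the first mitochondrial steps, fell while most genes of later steps were not called. arg6, the acetylglutamate synthase of the first reaction, stood at 11.04, 11.04 and 10.94 in wild type and at 10.89, 10.95 and 10.85 in dcr1Δ. It stood at 10.80, 10.83 and 10.84 in dcr1ΔC33 and at 10.76, 10.83 and 10.68 in dcr1-SHSS. The arrays of dcr1ΔC33 and dcr1-SHSS lay below all wild-type arrays. The changes were −0.18 ± 0.05 (adjusted p = 0.0158) and −0.25 ± 0.05 (adjusted p = 0.0027), and the first reached 0.0513 when wild-type array 2 was left out and 0.0541 when array 1 of dcr1ΔC33 was.

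arg11, which encodes the acetylglutamate kinase and reductase, stood at 13.90, 13.97 and 13.94 in wild type, at 13.74, 13.71 and 13.77 in dcr1ΔC33 and at 13.76, 13.84 and 13.74 in dcr1-SHSS. It fell by 0.19 ± 0.04 (adjusted p = 0.00345) and by 0.15 ± 0.04 (adjusted p = 0.00871). arg1, the acetylornithine aminotransferase that follows, went the other way in dcr1-SHSS, at 14.76, 14.73 and 14.78 against 14.62, 14.62 and 14.63 in wild type. It rose by 0.13 ± 0.04 (adjusted p = 0.0212, and up to 0.0678 without dcr1-SHSS array 3, 0.0507 without dcr1-SHSS array 1 and 0.0542 without wild-type array 1). arg3, the ornithine carbamoyltransferase, was not called, at 0.06 ± 0.09 in dcr1ΔC33 and −0.10 ± 0.09 in dcr1-SHSS. The kinase gene arg82 fell by 0.24 ± 0.08 in dcr1-SHSS (adjusted p = 0.0365), a call that failed without any array of the comparison except wild-type array 2, at up to 0.127 without wild-type array 1. In all 2 of 10 arg genes were called in dcr1ΔC33 (20%), both lower, and 4 in dcr1-SHSS (40%), 3 lower and 1 higher, which is below or near the 32.3% and 40.7% of all features called.

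The lysine genes belong to the aminoadipate route that fungi use. In dcr1ΔC33 3 of 7 fell (42.9%), and in dcr1-SHSS 4 fell and 1 rose. With median centring 1 fell in each mutant, and after quantile normalization 1 fell in dcr1ΔC33 and 3 in dcr1-SHSS. lys7, which encodes the phosphopantetheinyl transferase that activates the aminoadipate reductase Lys1, stood at 12.30, 12.26 and 12.39 in wild type and at 12.35 on each dcr1Δ array. It stood at 12.19, 12.24 and 12.19 in dcr1ΔC33 and at 12.10, 12.16 and 12.09 in dcr1-SHSS, so both sets lay below the other strains. The decrease passed in dcr1-SHSS at −0.20 ± 0.04 (adjusted p = 0.00336) and not in dcr1ΔC33 at −0.11 ± 0.04 (adjusted p = 0.059). The neighbour nuc2 stood at −0.06 ± 0.07 in dcr1-SHSS (adjusted p = 0.501).

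lys1, the aminoadipate reductase itself and another selection marker, fell by 0.16 ± 0.05 in dcr1ΔC33 (adjusted p = 0.0283) and by 0.17 ± 0.05 in dcr1-SHSS (adjusted p = 0.0193). lys12, the homoisocitrate dehydrogenase, fell by 0.09 ± 0.03 and 0.10 ± 0.03 (adjusted p = 0.046 and 0.0332). lys9, a saccharopine dehydrogenase, fell by 0.12 ± 0.04 in dcr1ΔC33 (adjusted p = 0.0321), and lys2, the homoaconitase, by 0.11 ± 0.04 in dcr1-SHSS (adjusted p = 0.0295). Each of these calls failed when single arrays were left out: any but wild-type array 1 for the dcr1ΔC33 calls, wild-type array 3 or dcr1-SHSS array 1 for lys1 in dcr1-SHSS, any but wild-type array 1 and dcr1-SHSS array 2 for lys12 there, and any array for lys2. The highest values in dcr1ΔC33 were 0.0951 for lys1 and 0.107 for lys9, both without dcr1ΔC33 array 2, and 0.124 for lys12 without wild-type array 3. In dcr1-SHSS they were 0.0694 for lys1 and 0.102 for lys12, both without dcr1-SHSS array 1, and 0.0705 for lys2 without dcr1-SHSS array 3. After quantile normalization lys12 stood at −0.03 in dcr1ΔC33 (adjusted p = 0.546) and −0.07 in dcr1-SHSS (adjusted p = 0.0814), and lys9 at −0.07 in dcr1ΔC33 (adjusted p = 0.143).

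Overlapping genes fell with some of these. wdr70, which overlaps lys2, fell by 0.20 ± 0.05 in dcr1-SHSS (adjusted p = 0.00573), beside 0.11 for lys2. rpe1, which overlaps lys12, fell there by 0.20 ± 0.07 (adjusted p = 0.034) and stood at −0.07 ± 0.07 in dcr1ΔC33 (adjusted p = 0.422). prm1, beside lys1, stood at 0.03 and −0.04 in the 2 mutants (adjusted p = 0.656 and 0.552).

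lys4, the homocitrate synthase of the first reaction, stood at 14.39, 14.44 and 14.45 in wild type and at 14.51, 14.51 and 14.58 in dcr1-SHSS. It rose there by 0.11 ± 0.03 (adjusted p = 0.0325), with adjusted p values of 0.104 and 0.0539 without wild-type arrays 1 and 2 and 0.112 without dcr1-SHSS array 3. In dcr1ΔC33 it stood at 14.51, 14.48 and 14.48, a change of 0.06 ± 0.03 that did not pass (adjusted p = 0.175). The neighbour mrpl16 stood at −0.23 ± 0.13 in dcr1-SHSS (adjusted p = 0.163), on the other side of 0 from lys4.

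Of the 4 leu genes none was called in dcr1ΔC33 and 2 fell in dcr1-SHSS (1 with median centring). leu1, the isopropylmalate dehydrogenase and a common marker, stood at 14.33, 14.40 and 14.34 in wild type and at 14.25, 14.16 and 14.21 in dcr1-SHSS. It fell by 0.15 ± 0.04 (adjusted p = 0.00934). leu3, the isopropylmalate synthase that opens the pathway, was not called, at 0.07 ± 0.05 in dcr1ΔC33 and 0.11 ± 0.05 in dcr1-SHSS (adjusted p = 0.0692). leu2, the isomerase, stood at −0.09 and −0.10.

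The carrier gene leu5 stood at 11.17, 11.15 and 11.16 in wild type, 11.27, 11.33 and 11.26 in dcr1Δ, 11.16, 11.08 and 11.09 in dcr1ΔC33, and 10.91, 10.99 and 11.12 in dcr1-SHSS. It was highest in dcr1Δ and lowest in dcr1-SHSS, with no overlap of either with wild type. The decrease in dcr1-SHSS was −0.15 ± 0.05 (adjusted p = 0.036), and it failed without any array of the comparison except dcr1-SHSS array 3, at up to 0.125 without dcr1-SHSS array 1. The gene ras1 overlaps leu5 and fell by 0.36 in dcr1ΔC33 and by 0.15 in dcr1-SHSS (adjusted p = 0.000724 and 0.0391), the second as much as leu5.

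The genes of the tryptophan pathway did not move together. trp3, an anthranilate synthase gene of the first reaction, stood at 10.91, 10.85 and 10.98 in wild type and at 10.94, 11.003 and 10.97 in dcr1Δ. It stood at 11.17, 11.10 and 11.22 in dcr1ΔC33 and at 11.08, 11.01 and 11.13 in dcr1-SHSS, above wild type in both. It rose by 0.25 ± 0.05 in dcr1ΔC33 (adjusted p = 0.00376) and by 0.16 ± 0.05 in dcr1-SHSS (adjusted p = 0.0236). The second call reached 0.0805 without dcr1-SHSS array 3 and also failed without dcr1-SHSS array 1 or wild-type arrays 1 or 2. The overlapping gene rpb3 was level, at 0.00 and 0.01.

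The other 3 enzyme genes of the pathway fell in both mutants as the values were deposited. trp2, the tryptophan synthase of the last step, stood at 13.95, 13.96 and 13.98 in wild type, 13.86, 13.87 and 13.88 in dcr1Δ, 13.86, 13.79 and 13.82 in dcr1ΔC33, and 13.73, 13.80 and 13.76 in dcr1-SHSS. Wild type was above every mutant array. It fell by 0.14 ± 0.03 in dcr1ΔC33 (adjusted p = 0.00862) and by 0.20 ± 0.03 in dcr1-SHSS (adjusted p = 0.00108), and in dcr1Δ the change of −0.09 ± 0.03 did not pass (adjusted p = 0.168). trp1, a multifunctional enzyme of the pathway, fell by 0.18 ± 0.04 and 0.15 ± 0.04 (adjusted p = 0.0108 and 0.0216). trp4, the anthranilate phosphoribosyltransferase, fell by 0.10 ± 0.03 and 0.11 ± 0.03 (adjusted p = 0.038 and 0.0178). The highest values with an array left out were 0.0724 for trp1 in dcr1-SHSS without array 1, 0.0661 for trp4 in dcr1-SHSS without array 3, and 0.122 for trp4 in dcr1ΔC33 without array 1. The trp1 call also failed without wild-type array 1, and that of trp4 in dcr1ΔC33 without any array except wild-type array 1. With centring 1 of these 3 decreases passed in dcr1-SHSS and 2 in dcr1ΔC33, and after quantile normalization trp4 stood at −0.06 in dcr1ΔC33 (adjusted p = 0.155).

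The 2 channel-like genes do not belong to this pathway. trp663 stood at 7.05, 6.80 and 6.97 in wild type, 7.12, 7.25 and 7.20 in dcr1Δ, 7.14, 7.21 and 7.28 in dcr1ΔC33, and 6.91, 6.83 and 6.95 in dcr1-SHSS. It rose by 0.27 ± 0.07 in dcr1ΔC33 (adjusted p = 0.0119), but after quantile normalization its change there was 0.01 (adjusted p = 0.885). Its overlapping neighbour cid12, a gene of the RNA-directed RNA polymerase complex, changed by 0.24 in dcr1Δ (adjusted p = 0.0946), 0.29 in dcr1ΔC33 (adjusted p = 0.00979) and 0.10 in dcr1-SHSS (adjusted p = 0.267).

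trp1322 stood at 12.50, 12.52 and 12.49 in wild type, at 12.63, 12.64 and 12.58 in dcr1ΔC33 and at 12.61, 12.68 and 12.66 in dcr1-SHSS. It rose by 0.11 ± 0.04 (adjusted p = 0.0429, up to 0.119 without dcr1ΔC33 array 2 and failing without any one array) and by 0.15 ± 0.04 (adjusted p = 0.0128). SPNCRNA.122, a non-coding RNA that overlaps trp1322, rose by 0.47 and 0.41 (adjusted p = 0.00147 and 0.00218).

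The met genes cover sulfate reduction, the building of homocysteine and the folate cycle that methylates it. Of 12, 3 fell in dcr1ΔC33, and 4 fell and 1 rose in dcr1-SHSS. The shares called, 25% and 41.7%, were below and near the 32.3% and 40.7% of all features. met8 stood at 12.23, 12.08 and 12.29 in wild type, 12.06, 11.91 and 12.05 in dcr1Δ, 12.11, 11.84 and 11.87 in dcr1ΔC33, and 11.80, 11.86 and 11.94 in dcr1-SHSS. It fell by 0.34 ± 0.08 in dcr1-SHSS (adjusted p = 0.00895), where the arrays did not overlap wild type. In dcr1ΔC33, where they did overlap, it fell by 0.26 ± 0.08 (adjusted p = 0.0336). That call failed with wild-type array 1 or 3 left out (0.0848 and 0.107), or dcr1ΔC33 array 2 or 3 (0.112 and 0.110). Its neighbour sum1 stood at −0.07 and −0.03.

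met3, a gene of homocysteine synthesis, stood at 12.29, 12.27 and 12.33 in wild type, 12.26, 12.21 and 12.14 in dcr1Δ, 12.09, 12.10 and 12.04 in dcr1ΔC33, and 12.02, 12.00 and 12.18 in dcr1-SHSS. It fell by 0.22 ± 0.05 (adjusted p = 0.00925) and by 0.23 ± 0.05 (adjusted p = 0.0057). met26, the methionine synthase, fell by 0.11 ± 0.04 and 0.13 ± 0.04 (adjusted p = 0.0335 and 0.0186, and up to 0.104 and 0.0643 without wild-type array 3). The first of these calls passed only with all arrays or without wild-type array 1, and the second also failed without dcr1-SHSS array 2. met11, a methylenetetrahydrofolate reductase, fell by 0.26 ± 0.08 in dcr1-SHSS (adjusted p = 0.0264, up to 0.0864 without wild-type array 1, and failing also without wild-type array 2 or dcr1-SHSS arrays 2 or 3). Its neighbour msc1 stood at 0.02 ± 0.06 (adjusted p = 0.807). In dcr1ΔC33 met11 stood at −0.15 and passed only with the replicate block (adjusted p = 0.0193).

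met6, the homoserine acetyltransferase that commits homoserine to the pathway, was the met gene that rose. It stood at 14.11, 14.12 and 14.09 in wild type and at 14.17, 14.23 and 14.23 in dcr1-SHSS. The change was 0.10 ± 0.03 (adjusted p = 0.0307, up to 0.092 without dcr1-SHSS array 3, and failing also without dcr1-SHSS array 2 or wild-type arrays 1 or 3). The genes of sulfate reduction, met10, met14 and met16, were not called in any mutant, nor was met17, the homocysteine synthase. With the replicate block met14, the adenylylsulfate kinase, passed in dcr1ΔC33 at −0.10 (adjusted p = 0.0428).

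Set in the order of the reactions, the first genes of the 6 pathways did not behave alike. arg6 fell and trp3 rose in both mutants, and lys4 rose in dcr1-SHSS, while his1 and leu3 were not called. ade4 was called lower in both, but neither call passed after quantile normalization or without any one array. In the lysine, leucine and tryptophan pathways the gene drawn first had a change above 0 in dcr1ΔC33 and dcr1-SHSS. Every gene drawn after it had one below 0. This order was noticed in the values and was not tested. Each gene was drawn once, also where its enzyme, as for trp1 and arg11, acts at several steps.

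**Figure D5:**
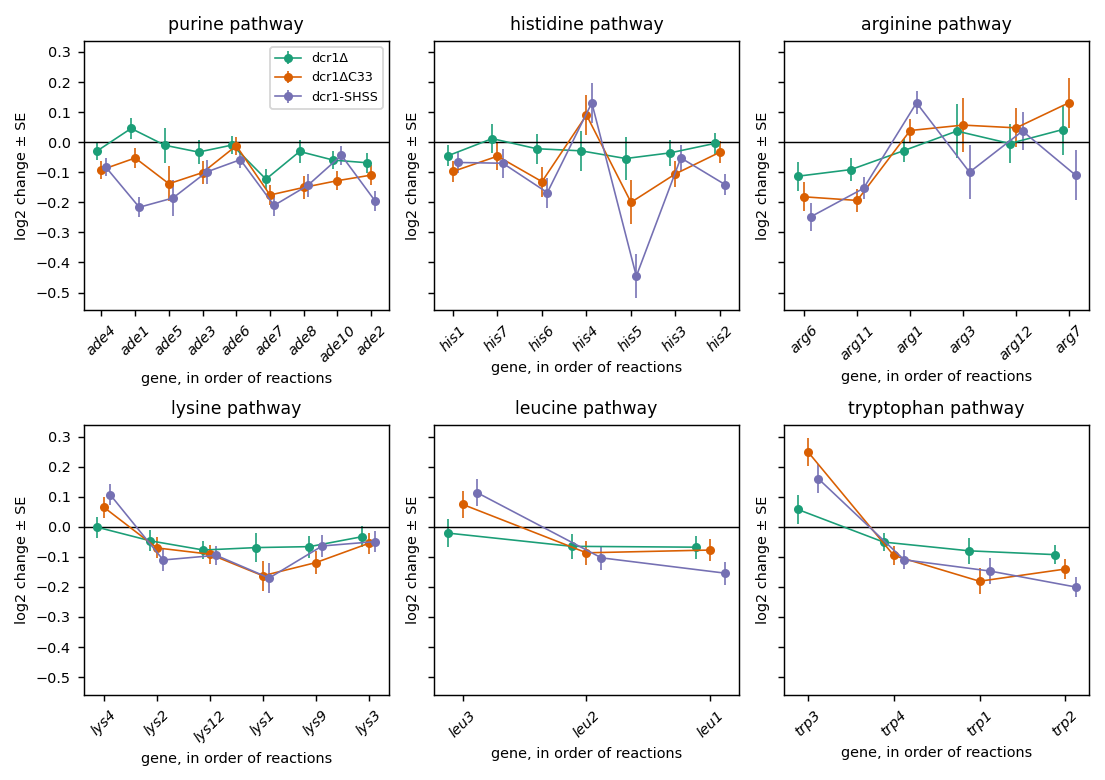
Panels give the log2 change against wild type with its SE for the genes of 6 pathways in the order of their reactions, with a line per mutant. trp3, lys4 and leu3 at the left of their panels lie above 0 in dcr1ΔC33 and dcr1-SHSS with the genes to their right below. ade4 and arg6 lie below 0, and his5 is the lowest point. Each gene is drawn once, also where its enzyme acts at several steps.

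The mutants were also compared with each other. Against dcr1Δ, 1 of the 56 genes was called in dcr1ΔC33, where 7.9% of all features were, 4.61% higher and 3.28% lower. trp3 rose by 0.19 ± 0.05 (adjusted p = 0.0382). This call failed without any array of the comparison except dcr1ΔC33 array 2, at up to 0.133 without dcr1ΔC33 array 3. With the replicate number as a block 3 genes were called: trp3 (adjusted p = 0.017), lys7 at −0.14 (adjusted p = 0.0482) and ade9 at −0.16 (adjusted p = 0.035). In that fit 1.79% of the 56 genes rose and 3.57% fell, below the 7.4% and 8.04% of all features.

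Against dcr1Δ, 11 of the 56 fell in dcr1-SHSS (19.6%) and 3 rose (5.36%), where 26.6% of all features were called, 17.7% lower and 8.85% higher. The share that fell was thus near the background, and with median centring 6 fell (10.7%), beside 12.1% of all features. The largest decreases were those of his5 at −0.39 ± 0.07 (adjusted p = 0.00508), trp663 at −0.29 ± 0.07 (adjusted p = 0.0112), leu5 at −0.28 ± 0.05 (adjusted p = 0.00457), ade1 at −0.26 ± 0.03 (adjusted p = 0.00103) and lys7 at −0.24 ± 0.04 (adjusted p = 0.0035). These 5 also passed without any one array. With the replicate block 21 genes were called, 16 lower (28.6%, where 23.7% of all features fell), and the 7 added were met11, met7, his6, his4, ade9, leu3 and arg6. arg82, ade2, ade5, his2, met9 and trp2 fell by between 0.11 and 0.26, and arg1, lys4 and trp1322 rose by 0.16, 0.11 and 0.14. Of these 9 only arg1 passed without any one array. The number called was 8 without dcr1Δ array 1, and 9 without dcr1Δ array 2 or any one of the dcr1-SHSS arrays. In these runs 10.7% to 14.3% of the 56 genes fell, where 8.21% to 12% of all features did, so near the background. Increases were called for 1.79% to 5.36% of the genes and 5.47% to 7.2% of all features.

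Between dcr1-SHSS and dcr1ΔC33 no gene of the 56 was called, where 0.146% of all features were, 0.0547% higher and 0.0912% lower. At an unadjusted p under 0.05 there were 10 of the 56 (17.9%) and 15.4% of all features. The smallest adjusted p was 0.0946, for ade1, at −0.16 in dcr1-SHSS minus dcr1ΔC33 (95% interval −0.24 to −0.09). trp663 differed by −0.31 (−0.46 to −0.17) and his5 by −0.25 (−0.41 to −0.08), and the highest difference was that of arg1 at 0.09 (0.01 to 0.18). All 56 intervals lay within a log2 difference of 0.5 either way, so larger differences between these 2 mutants lie outside the intervals.

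Other genes of the same metabolism were taken from lists made with earlier results of these data known. Of 20 measured genes of purine salvage, the GMP branch, ribose phosphate activation and one-carbon supply, 9 fell and 1 rose in dcr1ΔC33, and 13 fell and 1 rose in dcr1-SHSS, with medians of −0.10 and −0.14, and none was called in dcr1Δ. The shares called were 50% and 70%, beside 32.3% and 40.7% of all features. shm2, a serine hydroxymethyltransferase that loads one-carbon units on folate, fell by 0.41 ± 0.08 (adjusted p = 0.00535) and by 0.57 ± 0.08 (adjusted p = 0.000694). prs1, a phosphoribosyl pyrophosphate synthetase, fell by 0.22 ± 0.04 and 0.26 ± 0.04, and mtd1, a methylenetetrahydrofolate dehydrogenase, by 0.20 ± 0.05 and 0.27 ± 0.05. dea2, an adenine deaminase, fell by 0.40 ± 0.07 in dcr1-SHSS (adjusted p = 0.00218). The single rise, aah1, is no purine gene: in fission yeast that name belongs to an alpha-amylase homologue, and it entered the list through its budding yeast namesake. Its calls failed with an array left out, at up to 0.110 and 0.0743 without wild-type array 1, and that of mtd1 in dcr1ΔC33 passed without wild-type array 3 or dcr1ΔC33 array 3 but not without any other, at up to 0.0546 without dcr1ΔC33 array 2.

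Of 36 measured amino acid synthesis genes with other names, 11 fell and 3 rose in dcr1ΔC33, and 12 fell and 4 rose in dcr1-SHSS, with medians of −0.07 and −0.09. The shares called, 38.9% and 44.4%, were near the 32.3% and 40.7% of all features. The largest decrease in each mutant was that of ser2, the phosphoserine phosphatase, at −0.36 ± 0.05 (adjusted p = 0.000766) and −0.44 ± 0.05 (adjusted p = 0.00017). The 2 largest increases were of genes of breakdown that the list also held. car1, an arginase, rose by 0.82 ± 0.13 (adjusted p = 0.00108) and 0.80 ± 0.13 (adjusted p = 0.000972). gdh2, the NAD-dependent glutamate dehydrogenase, rose by 0.47 ± 0.11 (adjusted p = 0.0076) and 0.62 ± 0.11 (adjusted p = 0.00146). Another arginase gene, aru1, fell by 0.28 ± 0.07 and 0.42 ± 0.07, the first of which reached an adjusted p of 0.0538 when dcr1ΔC33 array 2 was left out and 0.0518 when wild-type array 3 was. With centring 7 genes of this list fell in dcr1-SHSS, and after quantile normalization 6 fell and 5 rose in dcr1ΔC33.

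Of 12 measured amino acid transporter genes none fell, where 0.328%, 17.6% and 25.8% of all features did in dcr1Δ, dcr1ΔC33 and dcr1-SHSS. In dcr1Δ 2 rose (16.7%, where 2.81% of all features did) and in dcr1ΔC33 3 rose (25%, where 14.7% did). In dcr1-SHSS 2 rose (16.7%, near the 15% of all features). agp3, an amino acid permease gene, rose by 1.06 ± 0.11 in dcr1Δ (adjusted p = 0.000301), 2.25 ± 0.11 in dcr1ΔC33 (adjusted p = 2.79e-07) and 2.40 ± 0.11 in dcr1-SHSS (adjusted p = 1.62e-07). dip5, another permease gene, rose by 0.23, 0.38 and 0.24 (± 0.05, adjusted p = 0.04, 0.000487 and 0.00455), and the first of these failed without any array except wild-type array 3, at up to 0.128 without dcr1Δ array 2, and was 0.11 after quantile normalization (adjusted p = 0.201). meu22 rose by 0.43 ± 0.14 in dcr1ΔC33 (adjusted p = 0.0418), and that call failed without any one array, at up to 0.114 without dcr1ΔC33 array 2.

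Of 28 measured genes of amino acid sensing and its regulators, 4 rose and 6 fell in dcr1ΔC33, and 7 rose and 7 fell in dcr1-SHSS. The shares called were 35.7% and 50%, where 32.3% and 40.7% of all features were, and the share that fell in dcr1-SHSS was 25%, at the background of 25.8%. The translation kinase gene hri2 rose by 0.34 ± 0.08 and 0.31 ± 0.08 (adjusted p = 0.011 and 0.0131), and its relative hri1 by 0.57 ± 0.16 in dcr1-SHSS (adjusted p = 0.0194, up to 0.0705 without dcr1-SHSS array 2, and failing also without wild-type array 1 or 3). gtr1 and gtr2, which encode the paired small GTPases that signal amino acids to TOR complex 1, moved in opposite directions, at −0.18 ± 0.04 and 0.18 ± 0.04 in dcr1ΔC33 and at −0.14 ± 0.04 and 0.22 ± 0.04 in dcr1-SHSS. The gtr1 call in dcr1-SHSS reached 0.0520 without dcr1-SHSS array 1. gcn5 was also called in both mutants and stayed called in every alternative run. Over the 28 genes the changes ran from −0.31 to 0.40 in dcr1ΔC33 and from −0.37 to 0.57 in dcr1-SHSS. fil1, the regulator of amino acid synthesis genes, was not called, at 0.01 ± 0.03 and 0.02 ± 0.03.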

How the data were processed

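Total RNA extracted with hot phenol (200 ng per labelling) was hybridised on 12 arrays, 3 per strain. The deposited log2 values are 1 level per feature and array, made by the authors with R 2.10.0 and the affy package per the submitters' processing notes; the background correction, normalization, annotation and genome build were not given in the sources used here. Of 5483 feature IDs, 5357 were found in a RefSeq gene table (assembly ASM294v3), which served for names, overlaps and chromosomes.

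The values as deposited were fitted with limma 3.58.1 (R 4.3.3): 4 strain means over 12 arrays, empirical Bayes (prior df 2.44, residual df 8), 2-sided tests, Benjamini-Hochberg adjustment over all features, threshold 0.05, no fold filter. The fit was also run on simulated data with independent noise on each array, which checks the code and not the calls made here. Alternatives are given in the closing section.

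Members and gene lists were chosen with earlier results of these data known. Named were all called members, the markers ade6, leu1, his3, his7, lys1 and arg3, members that are no biosynthesis enzyme, and up to 3 called genes per list and comparison; any other gene was named after its values were seen.

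The smallest median absolute difference between 2 arrays was 0.057, so each array counted as a replicate. Replicate numbers in the titles were checked for pairing: correlations of same-numbered arrays' deviations exceeded 0.1 in every pair for dcr1Δ and dcr1ΔC33 with wild type (0.151 to 0.388) and for dcr1ΔC33 and dcr1-SHSS with dcr1Δ (0.131 to 0.437), which is taken as pairing, and not for dcr1-SHSS with wild type (lowest 0.093) or with dcr1ΔC33 (lowest 0.021). The cut-off was applied to each comparison alone. It cannot settle whether dcr1-SHSS pairs with wild type, since both were taken as paired with dcr1Δ and their other correlations were 0.284 and 0.266. The main fit and the runs with 1 array left out used no block.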

Additional observations from a re-analysis of the deposited data

How the results depend on the processing

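The counts of the 56 genes called against wild type were 0 for dcr1Δ, 19 for dcr1ΔC33 and 31 for dcr1-SHSS, and of 65 calls over all comparisons 0 changed direction under an alternative. With only the 2 strains compared in the fit, 11 were called in dcr1ΔC33, 19 in dcr1-SHSS, 6 in dcr1-SHSS against dcr1Δ and 0 in dcr1ΔC33 against dcr1Δ. This fit has fewer arrays. For dcr1-SHSS against dcr1Δ it had 10.7% of the genes lower and 0% higher, where 10.3% and 6.27% of all features were. An adjusted p under 0.01 left 5, 11, 4 and 0, and a fold of 1.5 left 0 in each. At 0.01, 7.14% of the genes fell and 1.79% rose in dcr1ΔC33, where 6.69% and 8.85% of all features did. In dcr1-SHSS 19.6% fell and 0% rose, where 12.4% and 9.78% did. Against dcr1Δ 7.14% fell and 0% rose in dcr1-SHSS, where 4.94% and 4.16% did. At 1.5-fold 0.219% of all features fell and 4.07% rose in dcr1ΔC33, and 0.328% and 4.58% in dcr1-SHSS. Median centring gave 9 in dcr1-SHSS against dcr1Δ, and the cause was not tested. For dcr1ΔC33 against dcr1Δ, 2 were called after quantile normalization, 3 without the lowest 20% of features (which tests 54 of the 56), 3 with an intensity trend and robust moderation and 3 with the replicate block. In these runs 1.79% to 1.85% of the genes rose and 1.79% to 3.7% fell. Of all features 5.05% to 7.4% rose and 4.61% to 8.04% fell. Leaving out 1 array gave 0 to 1 in dcr1Δ (1 without wild-type array 1), 9 to 17 in dcr1ΔC33 (9 without dcr1ΔC33 array 3, 10 without wild-type array 3 or dcr1ΔC33 arrays 1 or 2), 19 to 25 in dcr1-SHSS (19 without its array 3, 20 without wild-type array 1), 0 to 1 for dcr1ΔC33 and 8 to 15 for dcr1-SHSS against dcr1Δ, and 0 between dcr1-SHSS and dcr1ΔC33. The replicate block gave 0, 26 and 35 calls against wild type (the 4 added in dcr1-SHSS were ade3, leu2, leu3 and his4, where numbers were not taken as pairing), 21 for dcr1-SHSS against dcr1Δ and 0 between dcr1-SHSS and dcr1ΔC33, and lost no call. In dcr1-SHSS against wild type the block had 50% of the genes lower and 12.5% higher, where 30.9% and 17.5% of all features were. Calls that passed every left-out array, both normalizations, the 2-strain fit, the block and the trend fit were 6 of 19 in dcr1ΔC33 (met3, arg11, trp1, ade7, trp2, trp3), 13 of 31 in dcr1-SHSS (his5, met8, arg6, met3, ade1, ade7, lys7, trp2, ade2, leu1, arg11, his2, trp1322) and 5 of 14 in dcr1-SHSS against dcr1Δ. With 1 array left out the share of the 56 genes that fell in dcr1ΔC33 was 12.5% to 26.8%, where 10.5% to 13.9% of all features fell. Precision is limited by 3 arrays per strain.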
